A study of Homo sapiens with 3 samples.

Results

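The nuclear genes of mitochondrial oxidative phosphorylation were read as 107 probe sets of 74 genes, out of 22215 probe sets and 11963 genes in the expression table of the immortalized human corneal epithelial cells (iHCE). They were taken by gene name, under a rule set with earlier results of these data known. A member is a probe set whose annotation gives exactly 1 nuclear gene with a symbol starting in NDUFA, NDUFB, NDUFC, NDUFS, NDUFV, UQCR, COX4, COX5, COX6, COX7, COX8 or ATP5, or with the symbol *SDHA*, *SDHB*, *SDHC*, *SDHD* or *CYC1*. By this rule 35 probe sets belonged to complex I, 7 to complex II, 10 to complex III, 20 to complex IV and 28 to complex V. The name rule also took in 5 assembly factors of complex I, the *NDUFAF* genes, and 2 genes that encode no protein, the antisense RNA *NDUFB2-AS1* and the pseudogene *ATP5MC2P1*. A further 9 probe sets with several gene names, among them those of *NDUFS5*, *NDUFS8*, *NDUFC2*, *UQCRH* and *ATP5MF*, fall outside the rule and were not analysed here.

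All samples were of a human corneal epithelial cell line immortalized with simian virus 40, which carries the viral large T antigen, and no untreated or control group was analysed here. The cells, at passages 22 to 23, grew submerged on collagen-coated permeable filters for 1 week and then with air on the apical side, in a medium with serum, insulin, cholera toxin, EGF and dimethylsulfoxide. Ascorbic acid was added to the medium at the change to air. RNA of 3 replicate cultures, each with a transepithelial resistance above 300 Ω x cm2, went onto Affymetrix human genome arrays, with 1 array per culture. The resistance was 489, 439 and 468 Ω x cm2 in cultures 1, 2 and 3. With 1 line and 1 growth condition, these data hold no contrast with corneal tissue, and they describe levels and the spread between cultures.

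Oxidative phosphorylation is carried out in the inner mitochondrial membrane. Complexes I and II take electrons from NADH and succinate, complex III passes them to cytochrome c, complex IV transfers them to oxygen, and complex V, the ATP synthase, uses the proton gradient that complexes I, III and IV build. Nearly all of their subunits are nuclear genes, a few are encoded in mitochondrial DNA, and complex IV has some subunits with separate isoforms for heart and skeletal muscle. The transcription factors NRF1, GABPA (of the ETS family), YY1 and ESRRA are known as regulators of these genes.

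The RMA values are on the log2 scale and ran from 3.29 to 14.69 over the table, with column medians of 6.37, 6.38 and 6.37 in cultures 1, 2 and 3. A probe set was called above background when, on every array, it was brighter than the 95th percentile of 54 genes of unrelated tissues, which lay at 7.26, 7.08 and 7.23 in cultures 1, 2 and 3. The precision of every mean rests on 3 arrays, and arrays carry no counting depth. Pearson's r over all 22215 probe sets, across probe sets that are not independent replicates, was 0.988 for cultures 1 and 2 and 0.987 for cultures 1 and 3, and 0.994 for cultures 2 and 3. The probe sets for poly-A control transcripts, a type of control made to be added to RNA, had a median of 5.44 in culture 1 and of 6.82 and 6.67 in cultures 2 and 3. Each of these medians lay below the background threshold of its array. The difference between the 3' and 5' probe sets was 1.64, 1.34 and 1.28 log2 units for *GAPDH* in cultures 1, 2 and 3, and 6.76, 5.93 and 5.96 for the control named HUMISGF3A, whose 5' probe set lay below the background threshold on every array. For *ACTB* it was 2.99, 3.25 and 3.003, so the difference was widest in culture 1 for 2 of the 3 controls. As to the label of the cells, 0 of 4 corneal markers (*KRT3*, *KRT12*, *PAX6* and *ALDH3A1*) and 1 of 4 measured basal markers (*ITGB4*) were above background, while 5 of 5 markers of simple epithelia were. Of 6 striated muscle markers, 3 keratocyte markers and 3 leukocyte markers, 0 were above background.

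The sequences below show what some of these genes share in front of their start. They come from the RefSeq promoter windows of build GRCh38.p14, which hold 250 bases before and 50 after an annotated start. Of the 72 protein-coding members 63 were matched, with 79 windows. *SDHA*, the flavoprotein of complex II, is shown because its promoter holds the NRF1 motif (GCGC and TGCGC with any base between them) 4 times, at a constant distance of 49 bases, with the motif in capitals (chr5:218140-218319, plus strand):
SDHA: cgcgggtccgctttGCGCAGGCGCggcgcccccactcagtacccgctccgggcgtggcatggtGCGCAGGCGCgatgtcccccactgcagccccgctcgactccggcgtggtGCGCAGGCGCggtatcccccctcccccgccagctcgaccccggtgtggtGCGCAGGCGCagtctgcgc
Among all 22199 windows of protein-coding genes 9 held this motif 4 or more times, and among the 79 windows of members 1 did. The matches in *SDHA* lie on the strand opposite to the gene. Single matches are shown for the membrane anchor *SDHD* (chr11:112086738-112086797, plus strand), the ATP synthase stalk gene *ATP5F1C* (chr10:7788130-7788176, plus strand), and *UQCRC1*, a core protein of complex III (chr3:48609659-48609718, minus strand):
SDHD: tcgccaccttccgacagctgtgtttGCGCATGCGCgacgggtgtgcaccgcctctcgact
ATP5F1C: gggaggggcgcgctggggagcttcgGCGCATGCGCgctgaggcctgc
UQCRC1: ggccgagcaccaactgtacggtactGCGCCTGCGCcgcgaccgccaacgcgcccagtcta

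The NRF1 motif, searched on both strands, was found in 14 of the 79 windows of members (17.7%), against 7.39% of all 22199 windows. By complex these were 4 of 34 windows for complex I, 2 of 2 for complex II, 3 of 5 for complex III, 0 of 13 for complex IV and 4 of 17 for complex V, with 1 of 8 for the assembly factors. The YY1 motif AANATGGC was found in 26 of the 79 windows (32.9%), against 7.37% of all windows. Of the 26 matches to YY1 in members, counted by window, 16 lay after the start and 13 of these on the strand of the gene. Overlapping windows count some of these sites more than once. By gene, 24 of 63 had a match (38.1%), against 9.67% of all genes. Before the start alone the motif was in 8.86% of the members' windows, against 3.65% of all windows. The ETS motif CCGGAAG stood in 20 windows of members (25.3%), against 12.8% of all windows. The SP1 motif GGGCGG, common in GC-rich promoters, was in 62.0% of the members' windows and 56.3% of all windows. The median GC content was 59.0% in the members' windows and 62.3% in all windows. The ERR motif TCAAGGTCA was in 1 window of a member, that of *SDHD*, and in 0.243% of all windows. Windows of a gene can overlap, and a match of letters is a description and not a site of binding.

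In the iHCE cultures the oxidative phosphorylation genes were read above background nearly throughout. Of the 107 probe sets 90 were above background on all 3 arrays (84.1%), while 33.2% of all probe sets were. The other 17 exceeded the threshold on 0 arrays, so no member lay above it on only some of the arrays. The median level of the members was 10.17, against 6.37 for all probe sets. Of the 74 genes, taken at their brightest probe set, 68 were above background, against 43.0% of all genes. The exceptions were the muscle isoforms *COX6A2* and *COX7A1*, the assembly factors *NDUFAF5* and *NDUFAF7*, and the 2 genes without a protein. The one-sided test in limma, which asked whether a mean exceeded the mean threshold with p-values adjusted after Benjamini and Hochberg over all probe sets, called the same 90 probe sets, with a largest adjusted p of 0.0025, for *NDUFA5*, while this test called 32.4% of all probe sets. The dimmest probe set called was that of *NDUFAF4*, at a mean of 7.65, and the brightest not called was a probe set of *COX5B*, at 6.70.

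**Figure D1:**
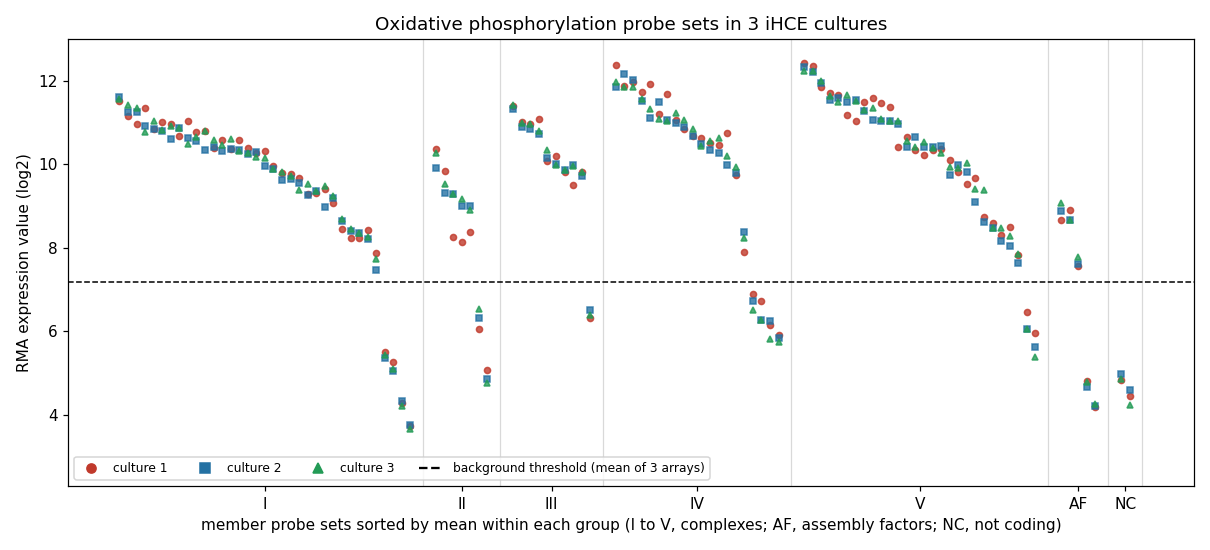
RMA value (log2) of each of the 107 member probe sets in cultures 1, 2 and 3 (symbols), sorted by mean within complexes I to V, the assembly factors (AF) and the genes without a protein (NC); the dashed line is the mean background threshold. Of the probe sets 90 lie above the line on every array and 17 below it on every array.

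Complex I, the NADH dehydrogenase, was read through 28 genes, and all 28 were above background at their brightest probe set. Among the subunits that carry flavin or iron-sulfur clusters, *NDUFV1*, which binds NADH, had levels of 10.95, 11.24 and 11.35 in cultures 1, 2 and 3. *NDUFV2* had 10.28, 10.30 and 10.17, *NDUFS1* 9.07, 9.19 and 9.24, and *NDUFS7* 9.78, 9.63 and 9.82. *NDUFS3*, a core subunit of the matrix arm without a cluster, had 10.38, 10.41 and 10.59. All 5 of these core genes exceeded the threshold on every array, and their SD over the cultures was at most 0.21.

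The 2 highest means in complex I belonged to accessory subunits. *NDUFS6* had 11.52, 11.61 and 11.56 in cultures 1, 2 and 3, the brightest reading and with an SD of 0.05 also among the most even. *NDUFB1* followed with 11.15, 11.26 and 11.43. *NDUFAB1*, the mitochondrial acyl carrier protein, which also serves fatty acid synthesis, had 10.59, 10.33 and 10.33. *NDUFA13*, also known as GRIM-19, had 10.96, 10.61 and 10.91. The dimmest gene of the complex was *NDUFA5*, at 7.87, 7.48 and 7.74, next to its other probe set at 3.72 ± 0.04 (mean ± SD, n = 3). *NDUFS4*, a late-joining subunit often mutated in Leigh syndrome, read 8.22, 8.41 and 8.45. Probe sets differ in affinity, so an order of levels between genes is an order of brightness and not of transcript amount.

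The assembly factors of complex I, which are not part of the finished enzyme, divided into 3 above background and 2 not. *NDUFAF1* had 8.67, 8.88 and 9.07, *NDUFAF3* 8.91, 8.66 and 8.67, and *NDUFAF4* 7.57, 7.61 and 7.77 in cultures 1, 2 and 3. *NDUFAF5* had 4.81, 4.67 and 4.79, and the methyltransferase gene *NDUFAF7* had 4.20, 4.21 and 4.26. The antisense RNA *NDUFB2-AS1*, no assembly factor but named after a complex I gene, had 4.83, 4.98 and 4.86. Both *NDUFAF5* and *NDUFAF7* had 1 probe set, marked _s_at, so no other reading of them was at hand. With the highest value of the panel as threshold, 0 of the 5 were above background.

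Complex II, the succinate dehydrogenase of the citric acid cycle, was read through *SDHA*, *SDHC* and *SDHD*, and all 3 were above background. *SDHA* had 10.36, 9.90 and 10.26 in cultures 1, 2 and 3, on a probe set marked _x_at. *SDHD*, a membrane anchor together with *SDHC*, had 9.83, 9.32 and 9.52. *SDHC*, whose probe sets were all marked _s_at or _x_at, was the member that varied most between the cultures. Its brightest probe set had 8.26, 9.28 and 9.28, so that culture 1 lay 1.02 log2 units under the mean of cultures 2 and 3. The others above background gave 8.15, 8.99 and 9.16, and 8.37, 8.99 and 8.90. Culture 1 was also the lowest at the dimmest probe set of *SDHC*, with 6.07, 6.32 and 6.54, below the threshold. Under the thresholds set at the highest panel value and at the median plus 3 scaled MADs, the number of complex II probe sets above background was 2 in place of 5, and *SDHC* was not above background under either.

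In complex III, the cytochrome bc1 complex, all 7 genes were above background, with the smallest spread of the 5 complexes. The median SD of its called probe sets was 0.0719, against 0.148 for all probe sets above background. The core proteins *UQCRC1* and *UQCRC2* had 11.01, 10.88 and 10.99, and 11.40, 11.32 and 11.41 in cultures 1, 2 and 3. *CYC1*, which carries the heme of cytochrome c1, had 10.07, 10.16 and 10.34. The small subunits *UQCRQ*, *UQCR10* and *UQCR11* had 10.96, 10.84 and 10.97, then 11.09, 10.72 and 10.79, and 9.82, 9.72 and 9.81. *UQCRB*, which helps to form the quinone-binding site, gave 10.19, 10.01 and 9.97 at its brightest probe set. No probe set of complex III above background had a range of 0.5 or more, against 17.5% of all such probe sets and 17 of the 90 members.

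Complex IV, the cytochrome c oxidase, was read through 13 genes, of which 11 were above background, and both exceptions were muscle isoforms. *COX6A2*, the isoform of heart and skeletal muscle, had 6.14, 6.26 and 5.81 in cultures 1, 2 and 3, and its ubiquitous counterpart *COX6A1* had 12.39, 11.85 and 11.96. *COX7A1*, likewise of muscle, had 5.92, 5.84 and 5.75, and its counterpart *COX7A2* had 11.74, 11.51 and 11.55. Each muscle isoform was under the threshold on every array, with a mean minus threshold of -1.12 for *COX6A2* and -1.35 for *COX7A1*. The calls of these 4 genes were unchanged under every alternative setting run. The 6 striated muscle markers measured, which include *CKM* at 5.22 ± 0.19 and *ACTA1* at 4.66 ± 0.23 (SD, n = 3), gave 0 calls as well.

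**Figure D2:**
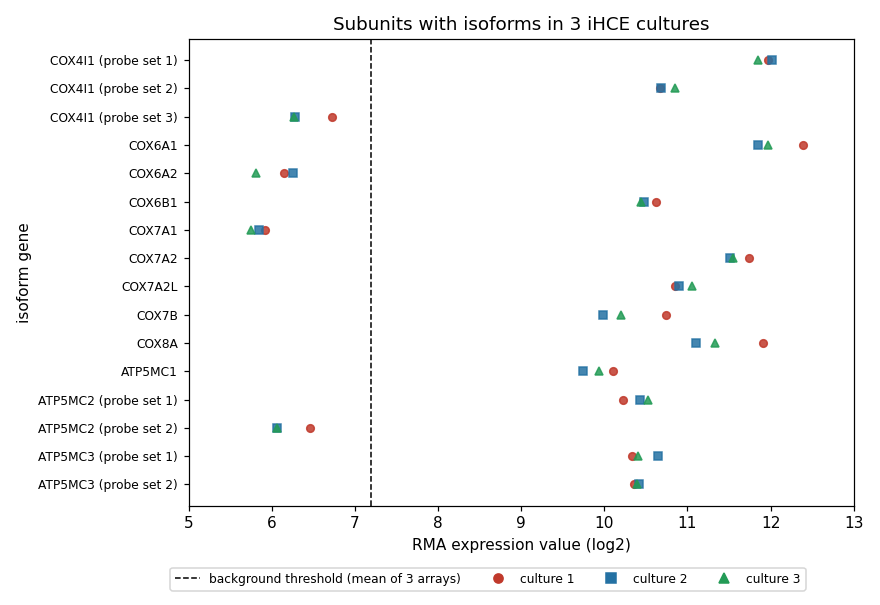
RMA value (log2) in cultures 1, 2 and 3 (symbols) of the 16 probe sets of 12 genes that belong to subunits with isoforms; probe sets of a gene are numbered by brightness and the dashed line is the mean background threshold. The muscle isoforms *COX6A2* and *COX7A1* lie left of the line on every array, as do the dimmest probe sets of *COX4I1* and *ATP5MC2*.

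The promoters of the *COX6A* pair are printed because the calls of the pair differ, with each CpG in capitals, over the 120 bases before the start (*COX6A1*, chr12:120437993-120438112, plus strand; *COX6A2*, chr16:31428361-31428480, minus strand):
COX6A1: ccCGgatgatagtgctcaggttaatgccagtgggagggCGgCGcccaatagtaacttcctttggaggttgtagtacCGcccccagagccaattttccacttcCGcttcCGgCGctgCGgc
COX6A2: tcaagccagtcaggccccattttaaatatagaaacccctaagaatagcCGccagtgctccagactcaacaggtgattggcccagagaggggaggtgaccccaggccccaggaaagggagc
The 120 bases of *COX6A2* hold 1 CpG and those of *COX6A1* hold 8, at a GC content of 55.8% and 59.2%. Over the windows of 250 bases before to 50 after the start the counts were 5 and 22 CpG, with a median of 22 over the members and of 21 over all windows.

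The other complex IV genes were all above background at their brightest probe set. *COX4I1*, the common form of subunit IV, had 11.97, 12.02 and 11.85 in cultures 1, 2 and 3. *COX6B1*, of the intermembrane face, had 10.62, 10.47 and 10.44, and *COX5B* 11.05, 10.99 and 11.23. *COX7C* had 11.87, 12.16 and 11.84. *COX6C* was at 9.73, 9.80 and 9.92. *COX7A2L*, a factor for supercomplexes of complexes III and IV, had 10.85, 10.90 and 11.05. For the isoforms *COX4I2*, *COX6B2*, *COX7B2*, *COX8C* and *NDUFA4L2*, and for *NDUFA4*, no values were analysed here.

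A group of complex IV genes was higher in culture 1 than in both other cultures. *COX8A* had 11.91, 11.10 and 11.33, *COX7B* 10.74, 9.99 and 10.20, and *COX5A*, which is a subunit of the matrix side, 11.67, 11.05 and 11.02. With *COX6A1* these were the 4 of the 16 called probe sets of the complex in which culture 1 exceeded the mean of the others by 0.3 log2 units or more. Over all complexes these were 13 of 90 members (14.4%), against 13.4% of all probe sets above background, and 11 (12.2%) were lower by as much, against 16.6%. The dimmer *COX7C* probe set went the other way, with 7.89, 8.37 and 8.23. A culture is 1 array, so these differences carry no test. Culture 1 is also the array with the lower median of the poly-A controls, a median that lay below the background threshold in every culture. It also had the wider 3' to 5' difference of *GAPDH* and HUMISGF3A. The part of these controls in the differences between cultures was not tested.

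In complex V, the ATP synthase, all 16 genes were above background, and the 2 brightest members of the whole set belonged to it. In the catalytic head, *ATP5F1A* (alpha) had 12.41, 12.32 and 12.24 in cultures 1, 2 and 3, and *ATP5F1B* (beta), which holds most of the catalytic site, had 11.71, 11.54 and 11.64. In the central stalk *ATP5F1C* (gamma) had 11.49, 11.26 and 11.29, and *ATP5F1E* (epsilon) had 11.57, 11.06 and 11.34. *ATP5F1D* (delta) was the dimmest gene of the complex, at 8.31, 8.16 and 8.48. In the peripheral stalk *ATP5PO*, which confers sensitivity to oligomycin, read 12.35, 12.22 and 12.22. *ATP5PB* had 11.85, 11.94 and 11.995, lowest in culture 1. *ATP5PD* and *ATP5PF* had 10.36, 10.43 and 10.26, and 10.64, 10.42 and 10.56.

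The membrane ring of the ATP synthase is built of subunit c, whose mature protein is the same for the genes *ATP5MC1*, *ATP5MC2* and *ATP5MC3*, which differ in their import sequences. All 3 were above background. *ATP5MC1* had 10.11, 9.74 and 9.93 in cultures 1, 2 and 3, *ATP5MC2* had 10.22, 10.42 and 10.52, and *ATP5MC3* had 10.34, 10.64 and 10.40. Culture 1 was the highest for *ATP5MC1* and the lowest for the others. The pseudogene *ATP5MC2P1* had 4.46, 4.59 and 4.24, below the threshold on every array. Of the remaining membrane subunits, *ATP5MJ* had 11.65, 11.59 and 11.50, and *ATP5ME* 9.68, 9.09 and 9.40. The inhibitor *ATP5IF1*, which blocks ATP hydrolysis when the proton gradient collapses, had 9.52, 9.81 and 10.04, lowest in culture 1.

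Of the 74 genes 21 had several probe sets, and for 11 of these the calls differed between them. The widest gaps were at *NDUFA2*, with means of 10.88 and 5.14, at *ATP5F1C*, with 11.35, 11.20, 11.15 and 5.66, and at *COX4I1*, with 11.95, 10.73 and 6.42. *NDUFB8* gave 10.64, 10.45 and 5.44, *SDHD* 9.56 and 4.89, and *COX5B* 11.09, 10.46, 10.46 and 6.70. The calls also differed for *ATP5MC2* (10.39 and 6.20), *NDUFB7* (8.32 and 4.28), *NDUFA5*, *UQCRB* and *SDHC*. Without the probe sets marked _s_at or _x_at, which can bind several transcripts, 50 genes were left and 39 of them were above background. In this setting 31.9% of all probe sets left were above background. *ATP5F1C*, *ATP5MC2*, *COX4I1*, *COX5B*, *NDUFA2*, *NDUFB7* and *UQCRB* were not above background then, since only their dim probe set remained.

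**Figure D3:**
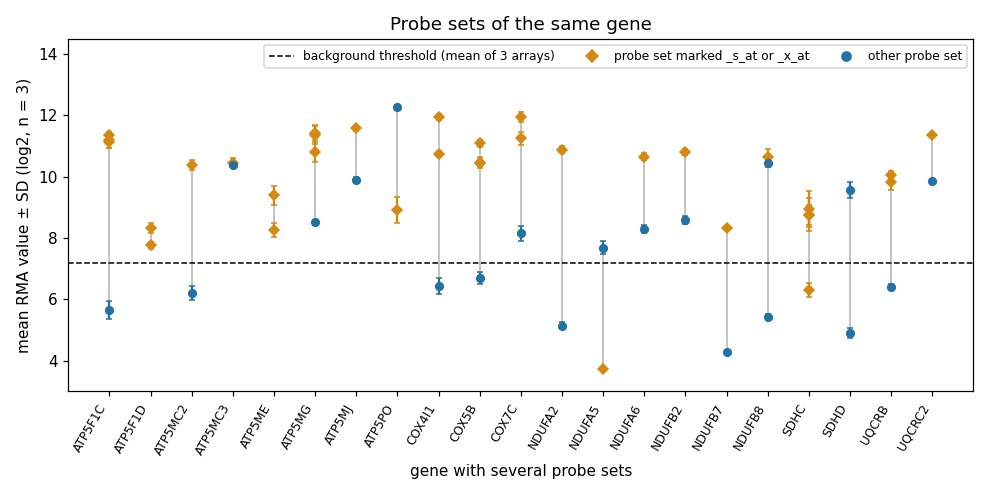
Mean RMA value (log2, error bars SD, n = 3 cultures) of every probe set of the 21 genes with several, with probe sets marked _s_at or _x_at as diamonds and the others as circles; the dashed line is the mean background threshold. For 11 genes the line passes between probe sets of the same gene.

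Over the 90 probe sets above background the spread between cultures was near that of the whole table. The median SD was 0.134, against 0.148 for all probe sets above background, and 17 of 90 (18.9%) had a range of 0.5 or more, against 17.5%. Culture 1 minus the mean of cultures 2 and 3 had a median of 0.0502 over these members and of -0.00148 over all probe sets above background. Culture 1 was the highest culture at 41 of the 90 members, against 39.6% of all such probe sets, and the lowest at 31, against 40.2%. Culture 2 was the lowest at 43 of the 90, against 33.6%. By gene, culture 1 was below the mean of the others in 23 of the 65 subunit genes above background (35.4%), against 49.1% of all genes above background.

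The 5 widest ranges belonged to 2 probe sets of *SDHC* (1.02 and 1.01), *COX8A* (0.81), a dimmer probe set of *ATP5PO* (0.78) and *COX7B* (0.75). At that probe set *ATP5PO* had 8.74, 8.61 and 9.39 in cultures 1, 2 and 3, while its brighter probe set had a range of 0.14. *ATP5MG*, a membrane subunit, showed the same division: its 3 probe sets marked _x_at were lower in culture 1 by 0.40, 0.49 and 0.57 log2 units, and its other probe set was higher there by 0.13. *UQCRB* was lower in culture 1 by 0.45 at its _x_at probe set and higher by 0.20 at its brightest. *SDHC* was lower in culture 1 at all 4 of its probe sets, but each was marked _s_at or _x_at, so no unmarked reading of it was at hand. Of the 16 genes with several probe sets above background, 7 had the same sign of this difference at all of them. In complex I, *NDUFB4* (11.35, 10.91 and 10.77) and *NDUFC1* (11.04, 10.62 and 10.49) were higher in culture 1 and *NDUFV1* was lower.

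**Figure D4:**
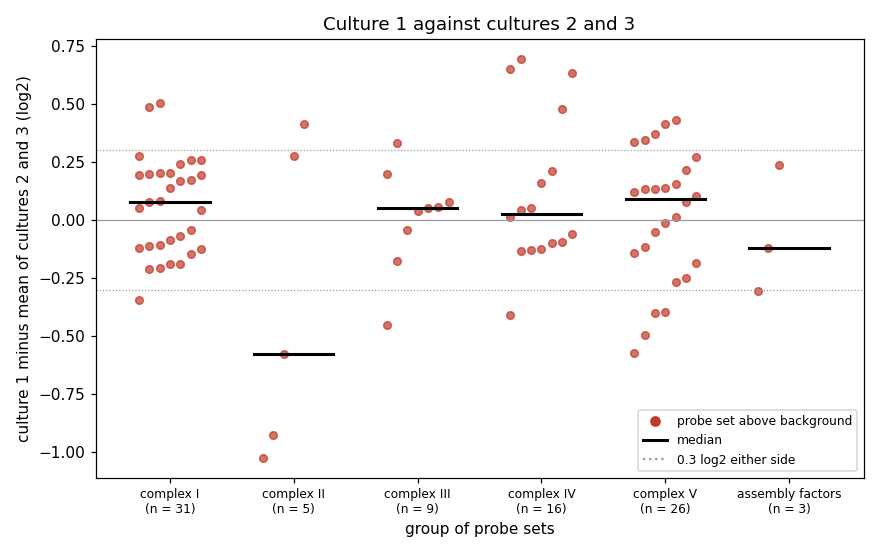
Culture 1 minus the mean of cultures 2 and 3 (log2) for each member probe set above background, by group, with the median as a bar and dotted lines at 0.3 either side. The lowest points are 2 probe sets of *SDHC* in complex II and the highest are *COX8A*, *COX7B* and *COX5A* in complex IV.

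Genes that build or serve the chain without carrying its names were read mostly above background too. Of 25 measured assembly genes outside the name rule 21 were above background, against 43.0% of all genes, among them *SURF1* (10.22 ± 0.12) and *COA3* (10.28 ± 0.14) of complex IV and *TMEM70* (10.22 ± 0.10), an assembly factor of complex V (SD, n = 3 for all). The 4 not above background were *NUBPL* (5.08 ± 0.29), *SDHAF3* (4.59 ± 0.12), *COX20* (5.35 ± 0.18) and *ATPAF2* (6.23 ± 0.14). Of 20 electron carriers and exchangers 17 were above background, with *CYCS*, the gene of cytochrome c, at 11.25 ± 0.19. The phosphate carrier *SLC25A3* was at 13.10 ± 0.05 and the ADP and ATP exchanger *SLC25A5* at 13.08 ± 0.20. *SLC25A4*, the exchanger form known from heart and muscle, was also above background, at 9.04 ± 0.08, and the testis form *SLC25A31* (3.67 ± 0.07) was not. *PDSS1* (7.04 ± 0.17) and *ETFDH* (6.38 ± 0.07) were the others not above background. Of 17 genes of the citric acid cycle and pyruvate dehydrogenase 16 were above background, with *MDH2* (10.78 ± 0.08), *PDHB* (10.55 ± 0.25) and *SUCLG1* (10.54 ± 0.12) brightest and *OGDH* (6.23 ± 0.51) the exception. The 13 subunits encoded in mitochondrial DNA were not analysed here.

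*ETFA*, which feeds electrons from fatty acid oxidation into the quinone pool, was singled out after its values were seen as the widest difference in these lists, at 8.79, 10.11 and 9.98 in cultures 1, 2 and 3. As with *SDHC*, culture 1 stood below both others, here 1.26 log2 units under their mean. Its partner *ETFB* had 9.98, 9.90 and 10.08, a range under 0.2. The outer membrane channel *VDAC1* had 9.05, 9.75 and 9.70, and its relative *VDAC3* 11.25, 10.73 and 10.93, in the opposite direction.

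Genes for the upkeep and transcription of mitochondrial DNA and for the regulation of the chain were above background in 9 of 18 cases, against 43.0% of all genes. Those were *YY1* (10.43 ± 0.09), the single-strand binding protein gene *SSBP1* (10.21 ± 0.18), *TFAM* (8.73 ± 0.22), *TFB1M*, *TFB2M*, *TWNK*, *POLG*, *ESRRA* (7.49 ± 0.16) and *HCFC1* (SD, n = 3 for all). The coactivator *PPARGC1A*, known as an inducer of mitochondrial biogenesis in muscle and brown fat, was at 4.99 ± 0.34, *ESRRG* at 4.57 ± 0.05, *GABPA* at 5.61 ± 0.11 and *MTERF1* at 5.57 ± 0.11, on 0 arrays above the threshold. *NRF1* itself (7.10 ± 0.19), *GABPB1* (7.07 ± 0.02) and *POLG2* (7.20 ± 0.30) exceeded it on 1 array, and *POLRMT* (7.33 ± 0.20) and *PPRC1* (7.47 ± 0.21) on 2. In culture 1, 8 of the 9 called genes of this list were below the mean of cultures 2 and 3, against 49.1% of all genes above background, with *YY1* as the exception and a median difference of -0.26.

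Among genes that loosen or restrain the chain, 5 of 11 were above background (45.5%), near the 43.0% of all genes. The 5 include *ATP5IF1*, which is also counted in complex V. *UCP2*, an inner membrane carrier named as an uncoupling protein, was at 8.10 ± 0.13, and *SLC25A14* at 9.21 ± 0.07 (SD, n = 3 for both). *UCP1* of brown fat (5.54 ± 0.10) and *UCP3* of muscle (6.74 ± 0.20) were not above background. The pyruvate dehydrogenase kinases, which restrain the entry of pyruvate into the citric acid cycle, were not above background in any of the 4 cases, with *PDK1* at 5.48 ± 0.03, *PDK2* at 6.85 ± 0.12, *PDK3* at 6.41 ± 0.23 and *PDK4* at 4.40 ± 0.17. The hypoxia-linked *HIGD1A* had 10.86 ± 0.07, and *HIGD2A*, which binds complex IV, 10.04 ± 0.15.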

How the data were processed

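RNA of 3 iHCE cultures was measured on Affymetrix arrays. The authors computed log2 expression values by RMA (R 2.8.0, per the labels) and deposited them for 22283 probe sets. RMA equalizes the arrays, so differences in total brightness are already removed, and it compresses low values. The methods describe joint RMA of the culture arrays and tissue arrays with probes regrouped by Entrez gene. The deposited values are per manufacturer probe set, and their origin in that joint run and the genome build are not given in the sources used here. In a joint run the culture values would also depend on the tissue arrays, which were not analysed here. Control probe sets (68) were set aside. Among all deposited probe sets, 19071 had 1 gene, 1043 several and 2169 were not listed in the platform annotation. Symbols were checked by Entrez number against RefSeq GRCh38.p14 (0 changed, 12 not found). Background came from 64 listed genes of other tissues, 54 measured. All members could be named. Values on every array were given for isoforms (at the brightest probe set), for the 3 brightest and the uncalled genes of each complex and for the 5 widest ranges, while other names, such as *ETFA*, *VDAC1* and *UCP2*, were picked with values in view. The members, lists and alternatives were chosen with earlier results of these data known. limma 3.58.1 (R 4.3.3) gave the one-sided test and was tested on simulated data, and Python 3.11.15 the rest. The alternatives were other thresholds, other probe sets, renormalization and leaving out each culture. A planned alignment of isoform proteins was not run.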

Additional observations from a re-analysis of the deposited data

How the results depend on the processing

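With quantile normalization, which keeps the ranks within an array, with the annotation's own symbols, with the 90th percentile of the panel, with the one-sided limma test (Benjamini-Hochberg adjusted) and without replicate 1, 2 or 3, 90 probe sets and 68 genes were above background. Some of these settings could hardly lower the counts. A lower percentile can add calls but remove none. With a culture left out, the threshold was set again from the remaining cultures, so calls could be added or removed. Among all 22215 probe sets, 7929, 7287 and 7565 were above background without replicate 1, 2 and 3, against 7377 with every culture. No symbol was changed, and kept ranks leave the calls nearly fixed. With a gene's probe sets averaged it was 66 genes, without *NDUFA5* and *NDUFB7*. With the median of the panel plus 3 scaled MADs 77 probe sets and 62 genes were above background, and with the highest panel value 70 and 57, while 3896 and 2450 of all 22215 probe sets were. Under both of these complex II had 2 probe sets above background, and with the highest panel value the assembly factors had 0. Without _x_at and _s_at probe sets 39 of 52 probe sets and 39 of 50 genes were above background, with 18 in complex I, 1 in complex II, 4 in complex III, 7 in complex IV, 6 in complex V and 6 among the isoforms, since fewer were tested. The YY1 motif was in 8.86% of the members' windows when only the bases before the start were searched, against 3.65% of all windows.

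Mean minus threshold turned negative with the highest panel value for *NDUFAF1* (-0.059), *NDUFAF3* (-0.18), *NDUFAF4* (-1.28), *NDUFA5* (-1.24), *NDUFA6* (-0.63), *NDUFB2* (-0.34), *NDUFB7* (-0.62), *NDUFS4* (-0.57), *SDHC* (-0.17 and -0.18), *COX7C* (-0.77), *ATP5F1D* (-0.62 and -1.17), *ATP5ME* (-0.66), *ATP5MG* (-0.42) and *ATP5PO* (-0.021), at the dimmer probe set of *NDUFA6*, *NDUFB2*, *COX7C*, *ATP5ME*, *ATP5MG* and *ATP5PO*. With the median plus 3 scaled MADs it did for *NDUFAF4* (-0.47), *NDUFA5* (-0.42) and *ATP5F1D* (-0.35, at its dimmer probe set). Other genes lost their call although the mean of their brightest probe set was not under the threshold, since the call needs every array. With the highest panel value these were *NDUFA3*, *NDUFS1*, *SDHC* and *ATP5ME*. With the median plus 3 scaled MADs they were *NDUFB7*, *NDUFS4*, *SDHC* and *ATP5F1D*. No paired analysis was possible because the series has 1 group.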
